A study of Mus musculus with 4 samples.

Results

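The genes described here are 5 members of the plasminogen activation system, chosen by symbol from the 32285 genes of the deposited feature tables: *Plau* (urokinase), *Plat* (tissue-type plasminogen activator), *Plaur* (the urokinase receptor), *Serpine2* (protease nexin 1) and *Serpinb2* (plasminogen activator inhibitor 2). They were picked with their levels in these cells already known, *Serpinb2* as a gene of a stromal population in KPC-3403 tumours. Their levels across cell classes are therefore descriptions without a test. Tests are given only for differences between the sorted and unsorted libraries and between the tumour lines.

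Plasminogen circulates as an inactive precursor and is cut to plasmin, a protease that dissolves fibrin and degrades or activates matrix proteins and other proteases. Urokinase and tissue-type plasminogen activator make that cut, the first mostly on cells that carry its receptor and the second mostly on fibrin. Serpins bind the activators irreversibly and end the reaction. In pancreatic cancer, urokinase and its receptor are best known for their part in invasion.

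C57BL/6J mice carried orthotopic pancreatic tumours of KPC lines, mouse pancreatic cancer lines from a genetically engineered model. The tumours were taken on day 13 and single cells were profiled with 10x 5′ chemistry. There were 4 libraries, and no treatment was given in any. The lines KPC-4545 and KPC-3403 each gave 1 library of the whole suspension and 1 library enriched for fibroblasts, for which cells stained for CD45, CD31, EPCAM or TER119 had been sorted out. The labels do not say whether the libraries of a line came from 1 animal, so the p-values below measure only the spread between these libraries. The age of the mice was not given in the sources used here. Each line is a single line, so line and recipient animal cannot be told apart.

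After filtering, 1514 cells remained in the enriched KPC-4545 library, 527 in whole KPC-4545, 2468 in enriched KPC-3403 and 1101 in whole KPC-3403. The libraries held 47207893, 5746733, 51450719 and 13990046 UMIs in that order. Some droplet barcodes occurred as cells in more than 1 library: 132 were shared by enriched KPC-4545 and whole KPC-3403, and 124 of these had a median of 39.2 times fewer UMIs in enriched KPC-4545. In all, 146 such shallow copies were left out, 130 of them in enriched KPC-4545. With these copies kept, the fibroblast-like cells of that library numbered 31 in place of 28 and held 1.06 UMIs per 10000 of *Plau*, 3.66 of *Plat*, 0.961 of *Plaur* and 4.50 of *Serpine2*, each within the counting interval of the value given below. Levels in its other stroma are given both ways beside the results.

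Cells fell into classes by marker lists. The enriched KPC-4545 library was mostly tumour-like (76.8% of cells), and its stroma came to 28 fibroblast-like cells and 28 cells of a second stroma. That second stroma carried *Wt1*, a transcription factor of mesothelium and its descendants. In enriched KPC-3403 the *Wt1* level was 2.14 UMIs per 10000, against 0.364 in fibroblast-like cells and 2.21 in mesothelial-like cells. Against fibroblast-like cells the step was smaller in whole KPC-3403 (1.79 against 0.987), and in enriched KPC-4545 the levels were 3.11 against 0.486. In enriched KPC-3403 the second stroma also carried collagen genes, with the 10 fibroblast markers summing to 158 UMIs per 10000 and the 10 mesothelial markers to 9.20. It lacked the level of *Dpt* seen in fibroblast-like cells (0.159 against 11). It is called *Wt1*-positive stroma here, since its markers fit neither the fibroblast nor the mesothelial list alone. It held 1203 cells in enriched KPC-3403, 33 in whole KPC-3403 and 11 in whole KPC-4545. Mesothelial-like cells, with *Upk3b* at 5.90 and *Msln* at 6.05 UMIs per 10000, reached the minimum of 20 cells only in enriched KPC-3403 (91 cells).

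Tumour-like cells numbered 1163, 61, 705 and 314 in the same order of libraries. Most of those in enriched KPC-4545 lay in tumour clusters C1, C5, C12 and C19, and most of those in the other libraries in C1, C2, C7, C15 and C16. Their 12 epithelial markers summed to 31.6 UMIs per 10000 in enriched and 98.5 in whole KPC-4545, and to 85.5 in enriched and 119 in whole KPC-3403.

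Where the genes lie, and the sequence before their starts, introduces each of them. In the GENCODE M21 annotation of mm10, *Plau* (ENSMUSG00000021822) lies on chromosome 14 from 20836660 to 20843385 and *Plat* (ENSMUSG00000031538) on chromosome 8 from 22757727 to 22782844, both on the + strand. *Plaur* (ENSMUSG00000046223) lies on chromosome 7 from 24462484 to 24475968 on the + strand. *Serpine2* (ENSMUSG00000026249) lies on chromosome 1 from 79794197 to 79861180 on the − strand, and *Serpinb2* (ENSMUSG00000062345) on chromosome 1 from 107511423 to 107535478 on the + strand. *Serpinb2* shares 6476 bases with *Serpinb10*, a gene on the same strand, and reads in that stretch cannot be assigned to 1 of them by position.

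The bases before the RefSeq start (build GRCm38.p6) are shown for the 3 members in the promoter table, whose highest levels lay in 3 different classes: the receptor in neutrophils, *Serpine2* in fibroblasts and *Serpinb2* in *Wt1*-positive stroma. Capitals mark matches to motifs searched on both strands: TGANTCA (the AP-1 site), TGACGTCA (the cAMP response element), TATAAA (the TATA box core), GGGCGG (the GC box) and CCAAT (the CCAAT box). For *Serpine2*, 31 bases that the annotation places in an exon of the gene were left out. The annotated *Serpine2* gene begins at 79861180 on the − strand. The stretch shown lies before the RefSeq start but inside that annotated gene, downstream of its annotated start.
Plaur, chr7:24462233-24462482, + strand: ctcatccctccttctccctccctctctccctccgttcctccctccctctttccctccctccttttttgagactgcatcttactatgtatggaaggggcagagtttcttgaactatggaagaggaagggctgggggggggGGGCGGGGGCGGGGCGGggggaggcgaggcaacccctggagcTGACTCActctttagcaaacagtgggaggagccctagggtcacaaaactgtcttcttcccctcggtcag
Serpine2, chr1:79858697-79858915, − strand: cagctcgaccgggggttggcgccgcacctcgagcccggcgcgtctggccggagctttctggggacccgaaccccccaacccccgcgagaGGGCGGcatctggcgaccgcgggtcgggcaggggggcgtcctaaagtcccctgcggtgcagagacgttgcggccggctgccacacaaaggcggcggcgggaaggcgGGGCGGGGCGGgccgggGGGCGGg
Serpinb2, chr1:107511173-107511422, + strand: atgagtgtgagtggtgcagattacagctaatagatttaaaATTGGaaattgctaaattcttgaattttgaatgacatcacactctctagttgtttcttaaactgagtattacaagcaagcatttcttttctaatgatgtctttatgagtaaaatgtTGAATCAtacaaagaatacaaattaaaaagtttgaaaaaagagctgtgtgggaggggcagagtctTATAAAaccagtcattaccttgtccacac

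The *Serpinb2* window was AT-rich, at 32.4% G or C against a median of 52.4% over 32851 promoters. It held a TATA box core 29 bases before the start, which 12.4% of all promoters hold within 250 bases, and an AP-1 match 94 bases before it, which 6.75% hold. *Serpinb2* has a second RefSeq start at 107511510, whose window (38.4% G or C) is not shown. From that start the same matches lie 116 (TATA box core) and 181 bases (AP-1) away. The *Plaur* window held an AP-1 match 69 bases before the start and 3 GC boxes in 1 run. The *Serpine2* stretch was 77.6% G or C and held 4 GC boxes, a motif found in 32.7% of promoters, and neither a TATA box core nor an AP-1 match. A match is a string of letters and was not tested as a binding site.

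By class, the levels of the activators were highest in the stroma, and UMIs of both were also counted in tumour-like cells. Tumour-like levels of *Plau*, and of *Plat* except in whole KPC-3403, were under those of free RNA, which are given below. *Plau* reached 1.02 UMIs per 10000 in the *Wt1*-positive stroma of enriched KPC-4545 (15 UMIs in 28 cells; exact 95% Poisson interval 0.568 to 1.68, for counting error only, as in all such intervals below), 0.298 in that of enriched KPC-3403 (657 UMIs; 0.276 to 0.322) and 0.247 in that of whole KPC-3403 (15 UMIs; 0.138 to 0.407). Over these 3 libraries its mean was 0.520 ± 0.430 (SD, n = 3). Fibroblast-like cells had 0.870, 0.283 and 0.117 in the same libraries. The 2 kinds of stroma did not differ in *Plau* beyond counting error in enriched KPC-3403, with a ratio of *Wt1*-positive stroma to fibroblast-like cells of 1.05 and an interval of 0.878 to 1.27.

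The high *Plau* level in the enriched KPC-4545 stroma rests on few UMIs, 11 of the 15 being in 1 cell, and was 0.310 without that cell. It became 0.129 in 40 cells when the shared barcodes were kept, and 0.349 in 26 cells when genes of the system were allowed among the clustering genes. Of those 28 cells, 19 lay in stromal cluster S8, where *Plau* had 1 UMI. Immediate early genes, which respond to dissociation stress, summed to 301, 216 and 119 UMIs per 10000 in the *Wt1*-positive stroma of these 3 libraries, the order of its *Plau* levels. Their part was not tested. Tumour-like cells had 0.170 in enriched KPC-4545, 0.0874 in whole KPC-4545, 0.0367 in enriched KPC-3403 and 0.0371 in whole KPC-3403. Of the 10 UMIs of whole KPC-4545, 8 were in 1 cell, and without it that library held 0.0177, below both KPC-3403 libraries. Within enriched KPC-3403 the *Wt1*-positive stroma was 8.12 times above tumour-like cells (6.02 to 11.2).

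*Plau* was spread unevenly within the KPC-4545 tumour cells. Cluster C5 held 0.842 (167 UMIs in 335 cells), C19 0.245, C1 0.148 and C12 0.0445. C5 and C19 were also the clusters with the highest mitochondrial share, with medians of 13.9% and 14.4% of UMIs, against 1.95% in C1 and 1.24% in C12. The part of cell quality in this order was not tested. In whole KPC-4545, limiting cells to 10% mitochondrial UMIs lowered the tumour-like *Plau* level from 0.0874 to 0.00945, also below both KPC-3403 libraries.

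*Plau* was at or near background in leukocytes. Macrophage-like cells held 0.0837 (3 UMIs) in whole KPC-4545 and 0.0857 (6 UMIs) in whole KPC-3403. Neutrophil-like cells held 3 UMIs in 130 cells of whole KPC-3403 and none in the other libraries. No UMI was found in the B-like cells (177 and 124) and T-like cells (134 and 223) of whole KPC-4545 and whole KPC-3403.

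*Plat* UMIs were counted in both stromal classes and in tumour-like cells, and were close to absent from blood cells. In *Wt1*-positive stroma its level was 7.85 UMIs per 10000 in enriched KPC-4545 (6.49 to 9.42), 2.81 in enriched KPC-3403 (2.74 to 2.88) and 2.96 in whole KPC-3403 (2.54 to 3.42), with a mean of 4.54 ± 2.87 (SD, n = 3). Fibroblast-like cells had 3.43, 2.86 and 3.48, a narrower range. Mesothelial-like cells had 1.14.

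In KPC-3403 the 2 stromal classes carried like amounts of *Plat*, with a ratio of fibroblast-like to *Wt1*-positive cells of 1.02 (0.961 to 1.08) in the enriched library and 1.17 (0.939 to 1.47) in the whole one. In enriched KPC-4545 the *Wt1*-positive cells were 2.29 times higher (1.77 to 2.96), and with shared barcodes kept their level was 10.1. These 28 cells had a median of 8.68% mitochondrial UMIs, against 1.80% in the fibroblast-like cells beside them, and the part of cell quality was not tested. Tumour-like cells had 0.550 in enriched KPC-4545, 0.716 in whole KPC-4545, 1.19 in enriched KPC-3403 and 1.39 in whole KPC-3403. Both KPC-3403 libraries thus stood above both KPC-4545 libraries. At the finer clustering, tumour-like clusters ran from 0.0914 to 2.81 over all libraries. The highest of them had a median of 13.9% mitochondrial UMIs, and the part of cell quality in this spread was not tested.

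Leukocytes held almost no *Plat*: 0 UMIs in all neutrophil-like cells, 1 UMI in the macrophage-like cells (45 and 109) of the whole libraries, and 1 UMI in T-like cells. In whole KPC-3403 the *Wt1*-positive stroma was at least 40.4-fold higher than neutrophil-like cells, against a floor of 3 UMIs in the latter.

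*Plat* also varied among stromal clusters of enriched KPC-3403. It was highest in S8 (6.95), S9 (5.18) and S2 (4.08) and lowest in S0 (1.42) and the mesothelial-like S10 (1.14). S9 was led by the contractile genes *Tagln* and *Acta2*, and S2 by *Ndufa4l2*, *Wnt4* and *Il6*. S8 had the shallowest cells of the *Wt1*-positive clusters, with a median of 6383.5 UMIs and 8.19% mitochondrial UMIs. The same cluster in enriched KPC-4545 had a *Plat* level of 10.8. The 3 fibroblast-like clusters lay close together, at 3.04, 2.64 and 2.70 in S1, S7 and S11.

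Many cells of the class had *Plat*. After each cell was thinned to 1000 UMIs, 23.5% of *Wt1*-positive cells in enriched KPC-3403 had a *Plat* UMI (84.0% before thinning), against 10.4% of tumour-like cells and 0% of 41 erythroid-like cells of the same library. The share in *Wt1*-positive cells was close to the 22.8% of fibroblast-like cells. The tenth of *Wt1*-positive cells with the most *Plat* held 37.2% of its UMIs.

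**Figure D1:**
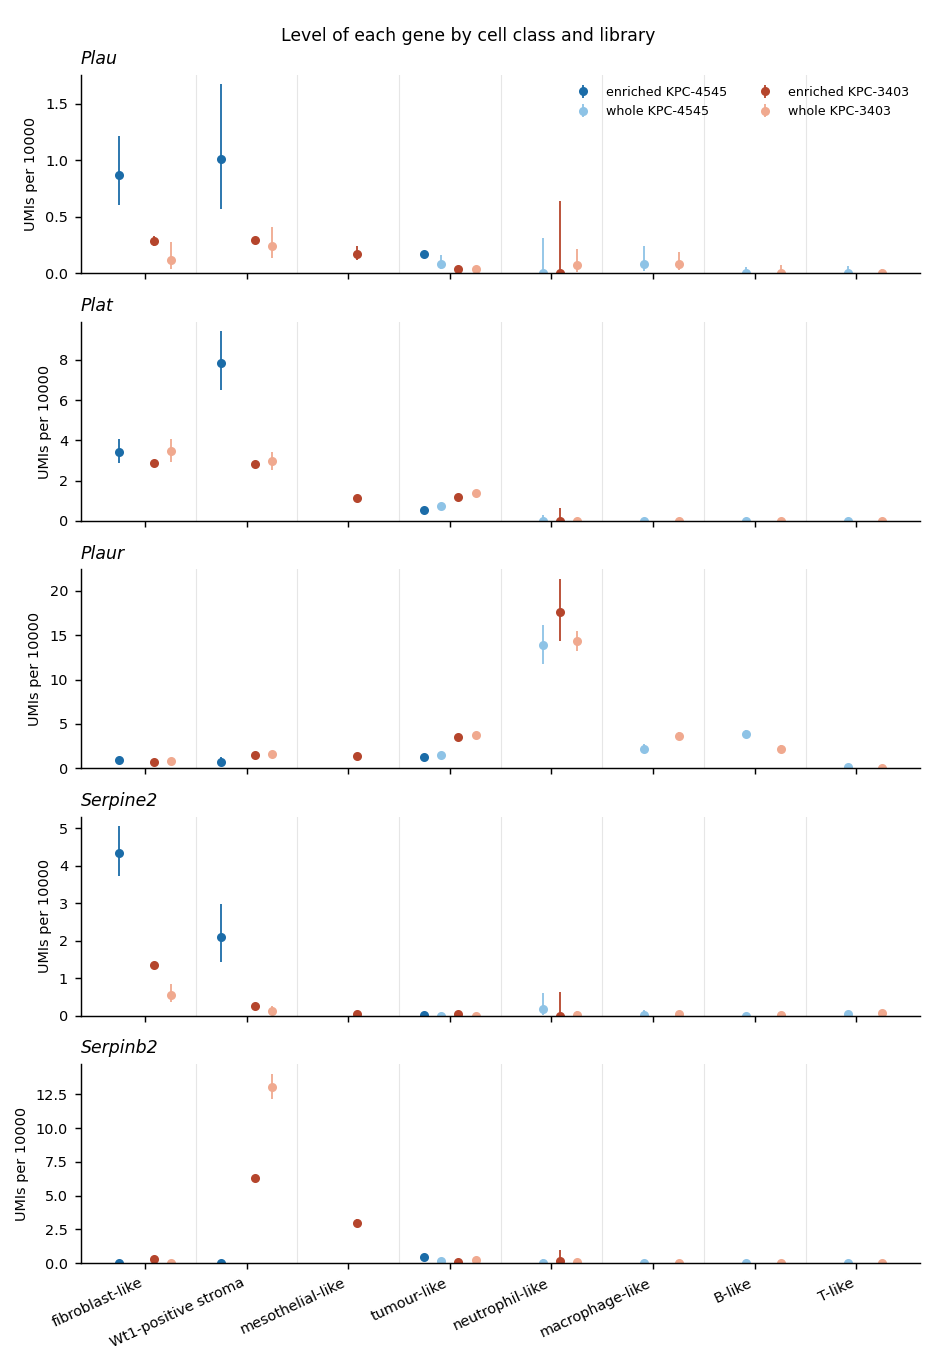
UMIs per 10000 of each gene (vertical axes, 1 scale per gene) in 8 cell classes with at least 20 cells in a library, with exact 95% Poisson intervals as bars and colours for the 4 libraries. *Plau* and *Plat* are highest in the stromal classes, *Plaur* in neutrophil-like cells (13.9 to 17.6), *Serpine2* in fibroblast-like cells, and *Serpinb2* in the *Wt1*-positive stroma of KPC-3403 (6.28 and 13.1).

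The receptor gene *Plaur* followed another order of cell classes, led by neutrophils. Neutrophil-like cells held 13.9 UMIs per 10000 in whole KPC-4545 (11.8 to 16.2), 17.6 in enriched KPC-3403 (14.3 to 21.4) and 14.3 in whole KPC-3403 (13.2 to 15.5). These 3 libraries agreed closely, with a mean of 15.3 ± 2.03 (SD, n = 3), though only 22 to 130 cells stood behind each. In whole KPC-3403 neutrophil-like cells were 3.93 times above macrophage-like cells (3.39 to 4.57) and 8.71 times above *Wt1*-positive stroma (7.04 to 10.9).

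Macrophage-like cells held 2.20 in whole KPC-4545 and 3.64 in whole KPC-3403. At a finer clustering, macrophage-like cells of whole KPC-3403 held 6.09. Over all libraries that clustering gave a macrophage-like cluster of 90 cells with 4.72 and a dendritic-like cluster of 70 cells with 0.137. No dendritic class was named at the main clustering, so the macrophage-like levels and the ratio above may include dendritic cells. Among lymphocytes *Plaur* was uneven. B-like cells held 3.84 and 2.19 in whole KPC-4545 and whole KPC-3403, while T-like cells held 0.155 and 0.0297, so B-like cells were 24.7 times (12.8 to 54.7) and 73.7 times (24.6 to 363) higher.

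Among tumour-like cells *Plaur* separated the lines. It was 1.27 in enriched KPC-4545 (1.23 to 1.32), 1.49 in the whole library of that line (1.28 to 1.74), 3.56 in enriched KPC-3403 (3.46 to 3.67) and 3.8 in whole KPC-3403 (3.62 to 3.98). The KPC-3403 libraries lay above the KPC-4545 libraries, and the 2 preparations of a line lay close together. In tumour clusters with at least 20 cells, the level ran from 0.863 (C5) to 1.45 (C12) in enriched KPC-4545, and from 2.35 (C1) to 4.12 (C15) in enriched KPC-3403. C1, which both enriched libraries filled, held 1.24 and 2.35.

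Stroma carried less *Plaur*. *Wt1*-positive cells held 0.745 in enriched KPC-4545 and 1.56 and 1.64 in the enriched and whole libraries of KPC-3403, and fibroblast-like cells 0.921, 0.766 and 0.775. In KPC-3403 the *Wt1*-positive cells were above the fibroblast-like cells by 2.03 times (1.83 to 2.26) in the enriched library and 2.12 times (1.42 to 3.25) in the whole one. In enriched KPC-4545 the interval of that ratio (0.371 to 1.62) included no difference, and with shared barcodes kept the *Wt1*-positive level was 0.258. Mesothelial-like cells held 1.39, and the contractile cluster S9, at 2.22, was the highest stromal cluster.

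The neutrophil signal was shared by many cells. After thinning to 1000 UMIs, 47.8% of 113 neutrophil-like cells in whole KPC-3403 had a *Plaur* UMI (56.9% before thinning; median of 1861 UMIs per cell), against 0.490% of 204 T-like cells (median of 4053 UMIs). The 13 cells with the most *Plaur* held 55.1% of the class's UMIs.

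The inhibitor *Serpine2*, an extracellular serpin that blocks thrombin, urokinase and tissue-type plasminogen activator, had its highest class level in fibroblast-like cells. Fibroblast-like cells held 4.35 UMIs per 10000 in enriched KPC-4545 (3.72 to 5.05), 1.34 in enriched KPC-3403 (1.24 to 1.45) and 0.564 in whole KPC-3403 (0.361 to 0.839). The 3 libraries differed beyond counting error, and the mean of 2.08 ± 2.0 (SD, n = 3) shows the spread. In whole KPC-4545 a single fibroblast-like cell held 17 of the library's 23 *Serpine2* UMIs.

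*Wt1*-positive stroma held less: 2.10, 0.259 and 0.132 in the same 3 libraries. In enriched KPC-4545 3 of the 28 cells held 87.1% of its 31 UMIs. Fibroblast-like cells were 2.07 times (1.41 to 3.15), 5.18 times (4.63 to 5.81) and 4.29 times (1.86 to 11) above them. The *Wt1*-positive levels depended on cluster borders: that of enriched KPC-3403 fell to 0.0967 at the finer clustering and 0.0733 with shared barcodes kept, and that of enriched KPC-4545 to 1.16 with shared barcodes kept. Tumour-like cells held 0.0146 (37 of 43 UMIs in 1 cell) and 0 in enriched and whole KPC-4545 and 0.0447 and 0.00436 in enriched and whole KPC-3403, and mesothelial-like cells 0.0477.

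*Serpine2* differed among stromal clusters. In enriched KPC-3403 the fibroblast-like cluster S11, led by *Apod*, *Lpl* and *Ccl19*, held 5.74 (311 UMIs in 67 cells). S1, led by *Thbs4*, *Sfrp4* and *Cilp*, held 1.15, and S7, led by *Postn* and *Dlk1*, held 0.335. Among *Wt1*-positive clusters the contractile S9 held 2.42 (436 UMIs, in 29 of 100 cells, 97 of them in 1 cell), and these were 436 of the 570 UMIs of the class. Under other clusterings, over all libraries, the contractile cluster high in *Serpine2* was named fibroblast-like. It held 3.45 at the finer clustering and 3.20 with listed genes kept for clustering. *Wt1*-positive clusters led by *Ndufa4l2*, *Tagln* and *Acta2* there held 0.106 and 0.480. After thinning, 11.5% of fibroblast-like cells in enriched KPC-3403 had a *Serpine2* UMI (36.7% before), against 0.438% of tumour-like cells of the same library.

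*Serpinb2*, a serpin held mostly inside cells and an inhibitor of urokinase and tissue-type plasminogen activator, had its highest class level in the *Wt1*-positive stroma of KPC-3403. *Wt1*-positive cells held 0 UMIs in enriched KPC-4545 (28 cells; upper limit 0.250 UMIs per 10000), 6.28 UMIs per 10000 in enriched KPC-3403 (13824 UMIs; 6.18 to 6.39) and 13.1 in whole KPC-3403 (796 UMIs; 12.2 to 14.0). The KPC-4545 and KPC-3403 values did not overlap, and their mean of 6.46 ± 6.54 (SD, n = 3) describes neither line. In whole KPC-4545 the 11 *Wt1*-positive cells, below the minimum of 20, held 2 UMIs (0.103; 0.0125 to 0.372).

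Whether KPC-4545 stroma lacks *Serpinb2* rests on few cells. With shared barcodes kept, the enriched KPC-4545 class had 40 cells and 2.19 UMIs per 10000. Of the 28 cells left without them, 19 were in S8, and that cluster in enriched KPC-3403 held 11.5 in 92 cells. Their acute-phase gene *Saa3* was also low, at 3.79 UMIs per 10000, against 82.9 in enriched KPC-3403, 45.3 in whole KPC-3403 and 38.3 in the 11 cells of whole KPC-4545. *Wt1* itself was present at 3.11, 2.14, 1.79 and 1.80 in these 4 libraries.

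Inside KPC-3403 the step between classes was large. In enriched KPC-3403 the *Wt1*-positive stroma was 20.6 times above fibroblast-like cells (17.6 to 24.3), 83.7 times above tumour-like cells (68.3 to 104) and 2.10 times above mesothelial-like cells (1.93 to 2.28), which held 3.0. In whole KPC-3403 it was at least 186-fold above fibroblast-like cells, where 27 cells had no UMI, and at least 306-fold above macrophage-like cells, where 109 had none. Macrophages are a known source of this inhibitor elsewhere, and the upper limit for their level here was 0.0527 UMIs per 10000.

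Among the clusters of enriched KPC-3403, *Serpinb2* was high in most *Wt1*-positive clusters and low in some. S8 held 11.5, S6 (led by *Cxcl13*, *Csf3* and *Saa3*) 9.02, S2 8.51, S3 6.84, S0 6.29 and the cycling S4 5.95. S5, led by *Calca* and *Penk*, held 0.955 and S9 2.40, both under the mesothelial-like S10 at 3.0. At the finer clustering, over all libraries, the mesothelial-like clusters held 6.75, 4.20, 2.56 and 0.339. The *Wt1*-positive clusters of that clustering ran from 0.448 to 14.9. The fibroblast-like S1, S7 and S11 held 0.230, 0.476 and 0.0924. In whole KPC-3403 the 11 cells of S9 held 24.4, with 332 of their 588 UMIs in 1 cell, and 13.1 without that cell.

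**Figure D2:**
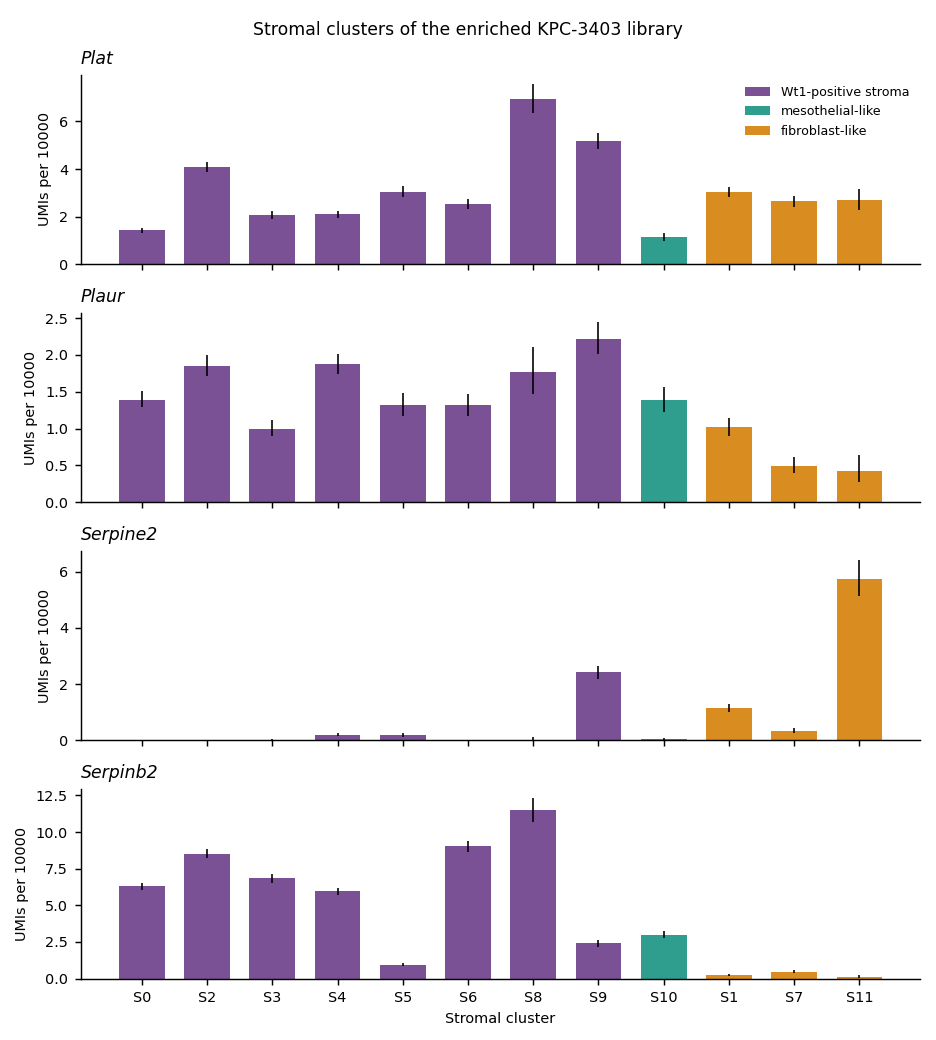
UMIs per 10000 of 4 genes (vertical axes start at 0) in the 12 named stromal clusters of enriched KPC-3403, with exact 95% Poisson intervals as bars and colours for the class. *Serpinb2* is low in S5 (0.955) beside 5.95 to 11.5 in S0, S2, S3, S4, S6 and S8, and *Serpine2* stands out in S11 (5.74) and S9 (2.42).

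*Serpinb2* was also unequal from cell to cell. Of the 1203 *Wt1*-positive cells in enriched KPC-3403, 549 had no UMI, 235 (19.5%) had at least 10 UMIs per 10000 and 64 had at least 30. The 120 cells with the most held 62.5% of the UMIs, against 37.2% for *Plat* and 37.0% for *Plaur*, and 1 cell held 309. In fibroblast-like cells 333 of 379 had none and no cell reached 10 UMIs per 10000. In whole KPC-3403 3 of 33 *Wt1*-positive cells held 80.3% of the class's UMIs, and its level was 8.23 in place of 13.1 without the highest cell.

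**Figure D3:**
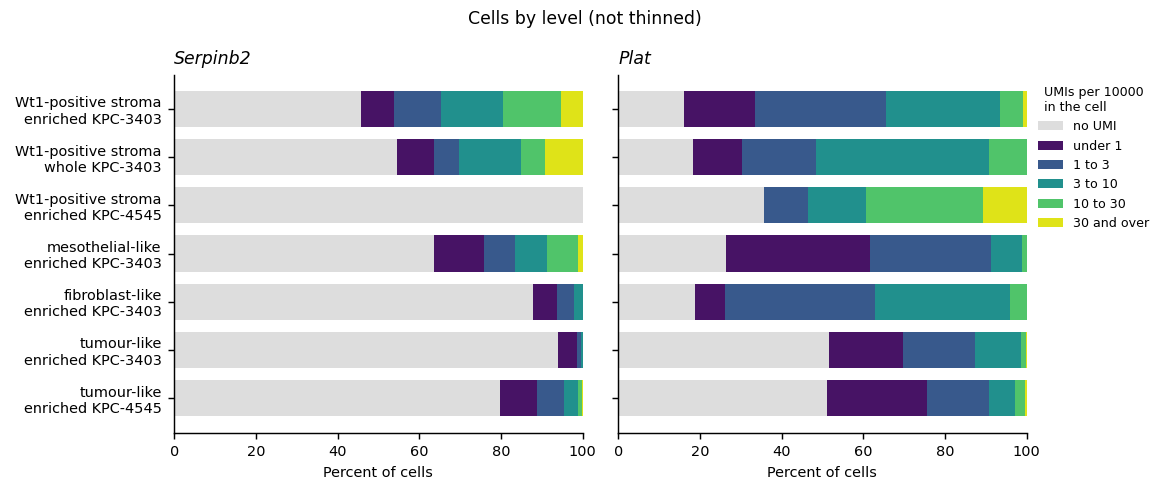
Percent of cells (horizontal axis, not thinned) by their UMIs per 10000 of *Serpinb2* (left) and *Plat* (right) in 7 combinations of class and library. For *Serpinb2*, 19.5% of *Wt1*-positive cells in enriched KPC-3403 had at least 10 UMIs per 10000 and all 28 in enriched KPC-4545 had none, while *Plat* was found in most cells of each stromal class.

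Free RNA carried the same gene. Barcodes of up to 100 UMIs held 5.43 *Serpinb2* UMIs per 10000 in enriched KPC-3403, 1.43 in whole KPC-3403, 0.671 in enriched KPC-4545 and 0.606 in whole KPC-4545. The tumour-like level of enriched KPC-3403, 0.0751, was far under that of its free RNA. After thinning to 1000 UMIs, 26.8% of *Wt1*-positive cells in enriched KPC-3403 had a UMI (54.4% before; median of 18127 UMIs), against 2.41% of fibroblast-like cells (median of 12175 UMIs) and 0.438% of tumour-like cells (median of 16122 UMIs). The share in fibroblast-like cells was not separated from free RNA. Free RNA of enriched KPC-3403 also held 0.421 UMIs per 10000 of *Plau*, 1.96 of *Plat*, 1.37 of *Plaur* and 0.398 of *Serpine2*. *Plau* and *Plat* stood at 0.237 and 0.776 in free RNA of enriched KPC-4545, 0.178 and 1.14 in whole KPC-4545, and 0.0806 and 1.01 in whole KPC-3403. Tumour-like *Plau* was under free RNA in every library, and tumour-like *Plat* in all but whole KPC-3403. The stromal class levels of *Plau* in enriched KPC-3403 were under it too. Class levels at or under the free RNA of their library were not separated from it.

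Tumour-like cells held some *Serpinb2*, with 0.475 UMIs per 10000 in enriched KPC-4545 (0.451 to 0.501), 0.166 in whole KPC-4545 (0.0999 to 0.259), 0.0751 in enriched KPC-3403 (0.0607 to 0.0919) and 0.227 in whole KPC-3403 (0.185 to 0.275). The highest level was in enriched KPC-4545, where C5, C12 and C19 held 0.802, 0.647 and 0.606 and C1 0.365. In whole KPC-3403 cluster C7 held 91 of the 104 UMIs, and 70 of the 104 were in 1 cell. Without that cell the level of whole KPC-3403 was 0.0752, next to the 0.0751 of the enriched library.

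Because the classes differ in number, the cells that held most of a gene's UMIs changed with the preparation. Of all *Serpinb2* UMIs, *Wt1*-positive stroma held 94.4% in enriched KPC-3403 and 83.2% in whole KPC-3403, where it was 3.0% of cells. Tumour-like cells held 99.6% in enriched KPC-4545. For *Plat* the largest holder was *Wt1*-positive stroma in enriched KPC-3403 (66.0%) and tumour-like cells in whole KPC-3403 (65.4%) and enriched KPC-4545 (86.4%).

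For *Plaur* the high neutrophil level did not make neutrophils the largest holder. Tumour-like cells held 60.9% of its UMIs in whole KPC-3403 and neutrophil-like cells 20.5%. In whole KPC-4545 B-like cells held 34.8%, tumour-like cells 25.4% and neutrophil-like cells 24.1%. Fibroblast-like cells held 68.5% of *Serpine2* UMIs in enriched KPC-4545 while being 1.85% of its cells. In enriched KPC-3403 they held 51.6% and *Wt1*-positive stroma held 43.1%.

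**Figure D4:**
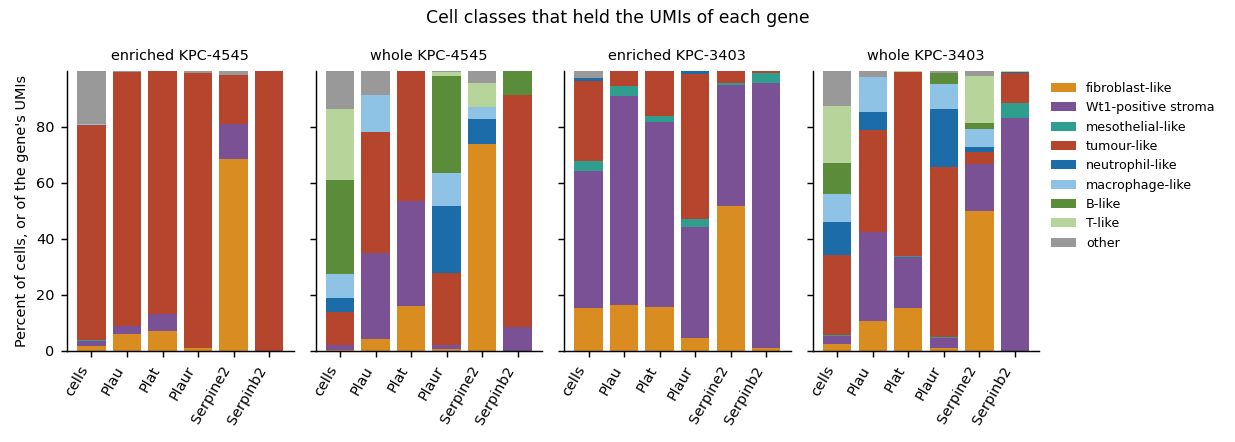
Percent of cells (first bar of each panel) and percent of each gene's UMIs (other bars) by cell class, 1 panel per library. *Serpinb2* UMIs come mostly from *Wt1*-positive stroma in KPC-3403 (94.4% and 83.2%) and from tumour-like cells in enriched KPC-4545 (99.6%).

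Some of the 5 genes followed each other across clusters. Over 41 sums of 1 cluster in 1 library with at least 20 cells, from 29 clusters, log2 levels of *Plau* and *Plat* correlated at r = 0.758, *Plau* and *Serpinb2* at 0.756 and *Plat* and *Serpinb2* at 0.715. *Plaur* correlated with the other 4 at −0.127 to 0.248, and *Serpine2* with *Serpinb2* at 0.0847. These sums share libraries, depth and clusters, and the values are descriptions. After thinning, 19 *Wt1*-positive cells of enriched KPC-3403 had *Serpine2*, and 1 of them also had *Serpinb2*. That is 0.314% of the 318 cells with *Serpinb2*, against 2.07% of the 870 without, and too few cells to show exclusion. Most *Serpine2* UMIs of the class also lay in cluster S9, where *Serpinb2* was low (2.40). *Plat* was found in 24.8% of the cells with *Serpinb2* and 23.0% of those without.

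Among 5329 genes, those whose levels followed each member most closely were named by rank of r. For *Serpinb2* they were *Hspb8* (r = 0.902), *Gjb5*, *Cdh2*, *Gata6* and *Wt1* (0.877). For *Plau* they were *Ddr2* (0.913), *Slit3*, *Egfr*, *Mpdz* and *Cacna2d1*, and for *Plat* *Adamts1* (0.940), *Pam*, *Pkd2*, *Egfr* and *Ltbp4*. *Serpine2* was nearest to *Cpxm2* (0.878), *Gng11*, *Fxyd6*, *Sfrp1* and *Ms4a4d*, and *Plaur* to *Marcksl1* (0.833), *Stx7*, *Basp1*, *Ralb* and *Slc16a3*.

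No transcript of the substrate gene was found. *Plg*, which encodes plasminogen and is a liver gene, had 0 UMIs over all cells, as did the inhibitors *Serpina5* and *Cpb2* and the fibrinogen genes *Fga*, *Fgb* and *Fgg*. Of the 8 genes listed as plasminogen and further inhibitors, 2 reached 1 UMI per 10000 in a class. *Serping1*, the C1 inhibitor, was higher in fibroblast-like cells (35.0 in enriched KPC-4545, and 27.1 and 19.7 in enriched and whole KPC-3403) than in *Wt1*-positive cells of these libraries (22.1, 13.1 and 8.50).

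Of the 6 plasminogen receptors and cofactors on cells, 4 reached 1 UMI per 10000. *Anxa2* and *S100a10*, whose products form a plasminogen-binding complex on the cell surface, were high in tumour-like cells, at 18.3 to 24.2 and 12.7 to 22.6 over the 4 libraries. *Eno1*, an enolase that also binds plasminogen, had its highest class mean in neutrophil-like cells (6.64). Of the 11 uptake and signalling partners of the receptor, 9 reached that level. *Lrp1*, the endocytic receptor for serpin complexes, had its highest class mean in fibroblast-like cells (7.0), and *Itgam*, the alpha chain of the integrin Mac-1, which binds the urokinase receptor on myeloid cells, in neutrophil-like cells (2.75).

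Of the 12 other proteases and starters of the cascade, 3 reached 1 UMI per 10000. *Mmp3*, stromelysin 1, held 14.2 in fibroblast-like cells of enriched KPC-4545, 5.09 in enriched KPC-3403 and 1.08 in whole KPC-3403, and *Mmp14*, a membrane protease, held 3.81, 4.68 and 4.23. *Mmp9*, gelatinase B, held 2.22 to 6.38 in neutrophil-like cells. None of the 10 listed substrates and targets reached that level, *Met*, the receptor for hepatocyte growth factor, being highest at 0.591 in tumour-like cells. Among 6 clade B serpins measured near *Serpinb2*, none reached it either, and *Serpinb5* and *Serpinb8* were highest at 0.227 (tumour-like) and 0.149 (mesothelial-like).

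The first tested comparison asked how sorting changed the genes over all cells of a library, with the line as a term in edgeR's quasi-likelihood test over 15096 genes. In CPM (the UMI count of a gene scaled to library size), *Serpinb2* stood at 43.9 in enriched and 6.86 in whole KPC-4545, and at 359 in enriched and 106 in whole KPC-3403. *Plau* stood at 17.2 and 6.86, and at 21.6 and 5.22, and *Serpine2* at 7.76 and 6.86, and at 32.4 and 5.33. *Plaur* went the other way, at 120 and 201, and at 212 and 318. In each line, then, *Serpinb2* and *Plau* were higher, and *Plaur* lower, in the enriched library. *Serpine2* was higher there in KPC-3403, while in KPC-4545 the ratio was 1.19 and the counting intervals of the libraries overlapped.

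None of the 5 genes passed at an adjusted p of 0.05, and no gene did (0% called, with 2474 genes at an unadjusted p under 0.05 and 1555 called by DESeq2). The log2 difference of *Serpinb2* was 2.19 (SE 0.37, edgeR adjusted p = 0.146), that of *Plau* 1.70 (SE 0.41, adjusted p = 0.193) and that of *Serpine2* 1.43 (SE 0.79, adjusted p = 0.473). *Plat* differed by 0.62 (SE 0.36, adjusted p = 0.473) and *Plaur* by −0.66 (SE 0.27, adjusted p = 0.350). With DESeq2 *Serpinb2* had an adjusted p of 0.000503. The fit has 1 residual degree of freedom, and without enriched KPC-3403 the *Serpinb2* difference was −0.42 and that of *Plat* −0.49.

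In sums over all cells, fewer cells of a type and less RNA per cell cannot be told apart. The make-up of the libraries moved with the preparation: B-like cells numbered 177 and 124 and T-like cells 134 and 223 in whole KPC-4545 and whole KPC-3403, while the enriched libraries held 0 and 2 B-like cells and no T-like cell. Immediate early genes moved with it as well. The 15 listed summed to 193 and 48.3 UMIs per 10000 in enriched and whole KPC-4545 and to 182 and 70.9 in enriched and whole KPC-3403, and all 15 had a positive difference (median log2 1.57, against 0.02 over all genes; none passed). Their part in the members' differences was not tested.

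The next comparison asked how sorting changed the genes within tumour-like cells alone. Of 12317 genes tested, 5 were called (0.0406%; 1312 at an unadjusted p under 0.05, 360 by DESeq2), and none was a member or a listed gene. The log2 differences were 0.38 for *Plau* (SE 0.45, edgeR adjusted p = 0.769), −0.38 for *Plat* (SE 0.22, adjusted p = 0.567), −0.24 for *Plaur* (SE 0.21, adjusted p = 0.699) and −0.20 for *Serpinb2* (SE 1.04, adjusted p = 0.963). *Serpine2*, at 1.35 and 0 CPM in enriched and whole KPC-4545 and 4.61 and 0.459 in KPC-3403, gave 3.49 (SE 1.18, adjusted p = 0.441), a fitted value that depends on the prior count. The preparations drew on different tumour clusters: C2 held 385 of 705 cells in enriched and 33 of 314 in whole KPC-3403, C16 10 and 103, and C5 335 of 1163 cells in enriched KPC-4545 and none of 61 in the whole library. Their part in these differences, and that of the sort against EPCAM, was not tested. The 15 early genes were again all higher in the enriched libraries, with a median log2 difference of 1.2 and none passing.

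The comparison of lines in tumour-like cells carried the largest contrasts of *Plaur* and *Plat*. Of 12317 genes, 13 were called between the lines (0.106%; 6 higher and 7 lower in KPC-3403; 2001 at an unadjusted p under 0.05), none of them a member. *Plaur* stood at 118 and 151 CPM in enriched and whole KPC-4545 and at 367 and 399 in KPC-3403, a log2 difference of 1.53 (SE 0.22, edgeR adjusted p = 0.120). *Plat* stood at 50.8 and 72.3 against 123 and 146, a difference of 1.15 (SE 0.22, adjusted p = 0.171). *Plau* stood at 15.7 and 8.81 against 3.79 and 3.90, a difference of −1.68 (SE 0.45, adjusted p = 0.230). In *Plaur* and *Plat* both KPC-3403 libraries lay above both KPC-4545 libraries. The order for *Plau* rests on 1 cell of whole KPC-4545 with 8 of its 10 UMIs, and turned for that library without it.

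*Serpine2* (1.87, SE 1.00, edgeR adjusted p = 0.417) and *Serpinb2* (−1.13, SE 1.06, adjusted p = 0.659) overlapped between the lines. DESeq2 called *Plaur* (adjusted p = 0.000454) and *Plat* (adjusted p = 0.0496) among 405 genes, and without the filter on low counts edgeR also called both (0.000441 and 0.0120). The clusters that make up the class differ between the lines, C5, C12 and C19 being almost wholly enriched KPC-4545, and their part in these differences was not tested.

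The other genes of the system gave no call in any of the 3 comparisons. Over all cells, 4 of the 8 plasminogen and inhibitor genes were tested, and 3 had a positive difference (median log2 1.12). All 6 receptors and cofactors were tested, and 5 had a positive one (median 0.70). Of the 11 uptake and signalling partners 6 did (median 0.09), and of 9 other proteases tested 4 did (median −0.68), against a median of 0.02 over all genes. Between the lines in tumour-like cells, 2 of 5 receptors and cofactors and 3 of 6 proteases were higher in KPC-3403, with medians of −0.28 and 0.70 against 0.00 over all genes.

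**Figure D5:**
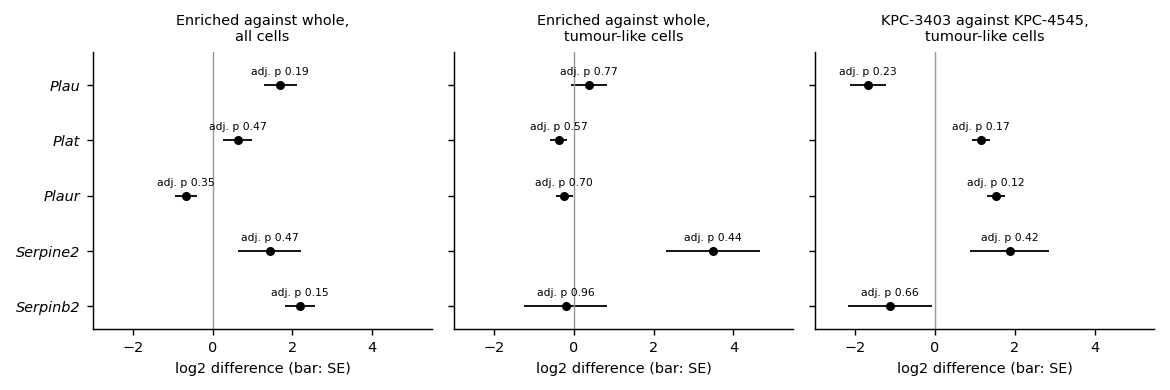
Log2 differences of the 5 genes with their SE (bars) in the 3 fitted comparisons, each labelled with its edgeR adjusted p. The largest shifts are those of *Serpine2* (3.49 in tumour-like cells) and *Serpinb2* (2.19 over all cells), and no adjusted p is at or under 0.05.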

How the data were processed

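The members and gene lists were chosen with earlier results of these data known. The authors deposited raw UMI counts for every gene in every droplet of the 10x 5′ libraries. The submitters' processing notes name Cell Ranger 6.1.1 and the mm10 build, whereas Cell Ranger 4 stands in the matrices, per the file headers.

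Cells needed 500 UMIs, 250 genes and at most 20% mitochondrial UMIs, and barcodes up to 5000 UMIs had to differ from free RNA (barcodes up to 100 UMIs; false discovery rate 0.01). Doublets were removed by Scrublet scores at 0.8% per 1000 cells, and a cell was left out where its barcode had over 10 times more UMIs in another library. In scanpy 1.11.5, cells were clustered on 1989 variable genes without the members and listed genes (30 components, 15 neighbours, Leiden resolution 1), and stromal cells again. Classes were named by marker lists. The naming margins, the stroma rule and the shared-barcode rule were set after clusters had been seen.

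Levels are UMIs per 10000 in cells of a class, with exact Poisson intervals, and shares of cells have exact Clopper-Pearson intervals in the tables, both at 95%. Sums per library were tested with edgeR 4.0.16 (robust glmQLFit, TMM, filterByExpr, Benjamini-Hochberg at 0.05) with the line and the preparation as terms, and SEs were taken from the log2 difference and its F. The script recovered changed genes in simulated data with a fixed spread, where the changed genes were well counted and their differences large. That run does not show what the fits can find among genes with few UMIs or a wider spread. The 2 libraries with 1 replicate number come from the same line and are paired by it in the labels: deviations from the preparation means correlated at 0.27 over all cells (15096 genes) and 0.49 in tumour-like cells (12317 genes). Named genes are the members, up to 4 genes of each list by highest class level, listed genes that pass a test, and the 5 genes most like each member in log2(UMIs per 10000 + 0.1). Alternatives were other size factors, DESeq2 1.42.0, no filter, dropped terms or libraries, other cell limits, finer clustering, listed genes kept for clustering, deeper thinning and, chosen after the data had been seen, keeping shared barcodes. 1 listed gene is not reported here.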

Additional observations from a re-analysis of the deposited data

Results flagged for a closer look

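*Serpinb2* in tumour-like cells was higher in the enriched library of KPC-4545 and lower in that of KPC-3403. It was 0.475 UMIs per 10000 in enriched and 0.166 in whole KPC-4545, and 0.0751 in enriched and 0.227 in whole KPC-3403, and the intervals of the 2 libraries, which cover counting error only, were apart in each line. The KPC-3403 direction rests on 1 cell of the whole library with 70 of 104 UMIs: without it that library held 0.0752, next to the enriched value. Whether the sorting difference itself differs between the lines was not tested.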

How the results depend on the processing

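The members' mean levels over libraries stayed within 1 SD under the alternatives run, but that SD is about as large as the mean for *Plau*, *Serpine2* and *Serpinb2*, so this shows little, and levels of single libraries moved further. The largest such moves are given beside the results. Counts of called genes varied with the settings, and the cause was not tested. Fits with both terms leave 1 residual degree of freedom, and those that leave out a library also drop the second term. Over all cells (0 calls) they were 1555 with DESeq2, 479 without the filter on low counts, 26 with shared barcodes kept and 0 to 2745 when 1 library was left out. For sorting in tumour-like cells (5 calls) they were 360 with DESeq2, 402 without the filter, 10 at 1000 UMIs and 500 genes, 1 at 10% mitochondrial UMIs, 2 with shared barcodes kept and 0 to 777 when 1 library was left out. For the lines (13 calls) they were 26 with RLE size factors, 405 with DESeq2, 779 without the filter, 0 without the preparation term, 8 and 2 under the same cell limits and 0 to 559 when 1 library was left out.

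Without the replicate block, the pairing by line, the counts were 0 over all cells and 0 in tumour-like cells, and the *Serpinb2* difference for sorting in tumour-like cells became 0.33. Leaving out 1 library, it ran from −1.38 (without enriched KPC-4545) to 1.07 (without enriched KPC-3403), being 0.13 without whole KPC-4545 and 0.65 without whole KPC-3403. In the same comparison, without enriched KPC-4545 *Plau* was −0.61, *Plat* 0.19 and *Plaur* 0.44, and without whole KPC-3403 *Plat* was 0.31 and *Plaur* 0.73, while without enriched KPC-3403 they were 1.43 (*Plau*), −1.12 (*Plat*) and −1.24 (*Plaur*). Over all cells without enriched KPC-3403, *Plat* was −0.49 and *Serpinb2* −0.42, with upper ends of 1.49 (*Plat*, without enriched KPC-4545) and 4.86 (*Serpinb2*, without whole KPC-3403). Calls gained over all cells were *Serpinb2* without the filter (adjusted p = 0.0371) and, without enriched KPC-4545, *Plau* (0.0369) and *Serpine2* (0.0115). Thinning to 2000 UMIs raised the shares with a UMI to 35.2% (*Serpinb2*), 38.9% (*Plat*) and 5.49% (*Plau*) of *Wt1*-positive cells and 18.8% (*Serpine2*) of fibroblast-like cells in enriched KPC-3403, and to 73.7% (*Plaur*) of neutrophil-like cells in whole KPC-3403. Such a rise follows from the procedure, since a cell with more UMIs kept is more likely to hold at least 1 of a gene. Cells under 2000 UMIs were also left out, so the cells counted differ between these depths. Cell number limits the stroma of KPC-4545, with 28 cells per class in the enriched library.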
